A study of Mus musculus with 52 samples.

Results

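The miR-21a hairpin of the mouse gives 2 mature miRNAs, mmu-miR-21a-5p and mmu-miR-21a-3p, and these are 2 of the 1900 miRNAs counted in each of 52 small RNA libraries from the hippocampus. Both were taken by name, and they were selected on their counts in these libraries: an earlier look had found miR-21a-5p higher in the CA region after 2 weeks of environmental enrichment than in its home cage control. Values that involve either of those groups, 2wEE_CA and 2wHC_CA, are therefore given as a description, with no test.

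The mice were of the strain C57B/6JRj and were 20 weeks old per the labels, in every group and for either housing time. They had lived for 10 or 2 weeks in environmental enrichment (EE, housing with more space, objects and stimulation) or in a home cage (HC). The dentate gyrus (DG, which holds the granule cells) and the CA region (the pyramidal cell fields) were dissected apart. The dentate gyrus gave 8 libraries of 10wEE_DG, 6 of 10wHC_DG, 5 of 2wEE_DG and 6 of 2wHC_DG. The CA region gave 8 libraries of 10wEE_CA, 6 of 10wHC_CA, 7 of 2wEE_CA and 6 of 2wHC_CA. No label names a genetic change or an agent. No label ties a library to an animal, and p-values therefore reflect variation from library to library, some of which may be technical.

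A miRNA guides the Argonaute protein to messenger RNAs that pair with its seed, the bases near its 5′ end, and lowers the protein made from them. Of the 2 arms of a hairpin, the one that Argonaute mostly keeps is the guide, and the other, the passenger, is mostly degraded. miR-21-5p is a guide that is widespread across tissues, is raised by inflammatory and growth signals such as STAT3 and NF-kappaB, and represses Pdcd4, an inhibitor of translation. In the brain it is known from glia, and it rises in reactive astrocytes after injury.

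The sequences of both arms and of the relatives by name are shown because the seed defines what they can pair with. The bases that differ are also what tells miR-21a reads from those of its relatives. They are RefSeq sequences for GRCm38.p6, written 5′ to 3′, with the seed (bases 2 to 8) in capitals.
miR-21a-5p: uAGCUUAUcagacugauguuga
miR-21a-3p: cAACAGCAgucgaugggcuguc
miR-21c: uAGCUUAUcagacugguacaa
miR-21b: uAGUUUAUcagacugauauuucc
miR-21a-5p lies at chr11:86584120-86584141 and miR-21a-3p at chr11:86584082-86584103, both on the minus strand. The Mir21a hairpin (chr11:86584067-86584158) sits on the same strand inside exon 12 of Vmp1, in the annotated untranslated part of that exon. Vmp1 encodes a membrane protein of autophagy. Among 1679 mature mouse sequences, miR-21c was the single other one with the seed of miR-21a-5p, and no other had the seed of miR-21a-3p. Over the 21 bases compared, miR-21c is identical to miR-21a-5p at 16, and all 5 differences lie toward the 3′ end: A16G, G18A, U19C, U20A and G21A, counted from 1 at the 5′ end with the base of miR-21a-5p first. miR-21b is identical at 18 of 22 bases, and its difference C4U falls in the seed.

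These relatives had almost no counts. Multiply aligned reads entered no miRNA count, and whether this lowered the counts of these relatives was not tested. miR-21c had 21 counts over all libraries, in 15 of the 52, and miR-21b had 0 counts in each, which allows up to 3 counts a library. miR-590-5p, a relative of miR-21 in other species, has no entry among the counted miRNAs. mmu-miR-21a-5p had 669766 counts over all libraries, and mmu-miR-21a-3p had 6619. RefSeq gives 1 hairpin for each arm of miR-21a.

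Libraries of the dentate gyrus held 1117213 to 3159957 miRNA counts, and those of CA 480792 to 6706855. Library 3 of 10wEE_CA stands apart: it holds the lowest total, and the other 7 of its group hold 3242842 or more. Fold changes that use it, or a spread estimated with it, are given with and without it, and a range over CA libraries says where it is left out. Levels are CPM, a miRNA's count scaled to a library sum of 1000000 miRNA counts, and 3 counts correspond to 0.447 to 6.24 CPM by library. Intervals on single libraries (95%, exact binomial) and this floor describe counting error alone, since no molecular identifiers are stated.

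miR-21a-5p was lower in the dentate gyrus than in CA in every pair of groups, and its group means in the dentate gyrus lay between 2365 and 2892 CPM. In 10wEE_DG it had 2465 CPM in the lowest library, a median of 2911 and 3235 in the highest. In 10wHC_DG the lowest, median and highest were 2347, 2681 and 3214 CPM. The enriched and home cage libraries at 10 weeks thus covered nearly the same range. In 2wEE_DG the 5 libraries had 2900, 2845, 2747, 2687 and 2721 CPM. In 2wHC_DG the lowest was 1971, the median 2376 and the highest 2629 CPM, so that every 2wEE_DG library was above every 2wHC_DG library.

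In CA the levels of miR-21a-5p were higher. 10wEE_CA ran from 4633 CPM over a median of 4864 to 12590 CPM, the last being library 3, without which the highest was 5307. 10wHC_CA ran from 4354 over a median of 4537 to 4684 CPM. Of the 8 libraries of 10wEE_CA, 7 exceeded the highest of 10wHC_CA. 2wEE_CA had 4717 CPM in the lowest library, a median of 5102 and 5699 in the highest. 2wHC_CA had 4184, 4316 and 4804 CPM as its lowest, median and highest values. All 7 libraries of 2wEE_CA exceeded the mean of 2wHC_CA, and 5 of them its highest library.

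**Figure D1:**
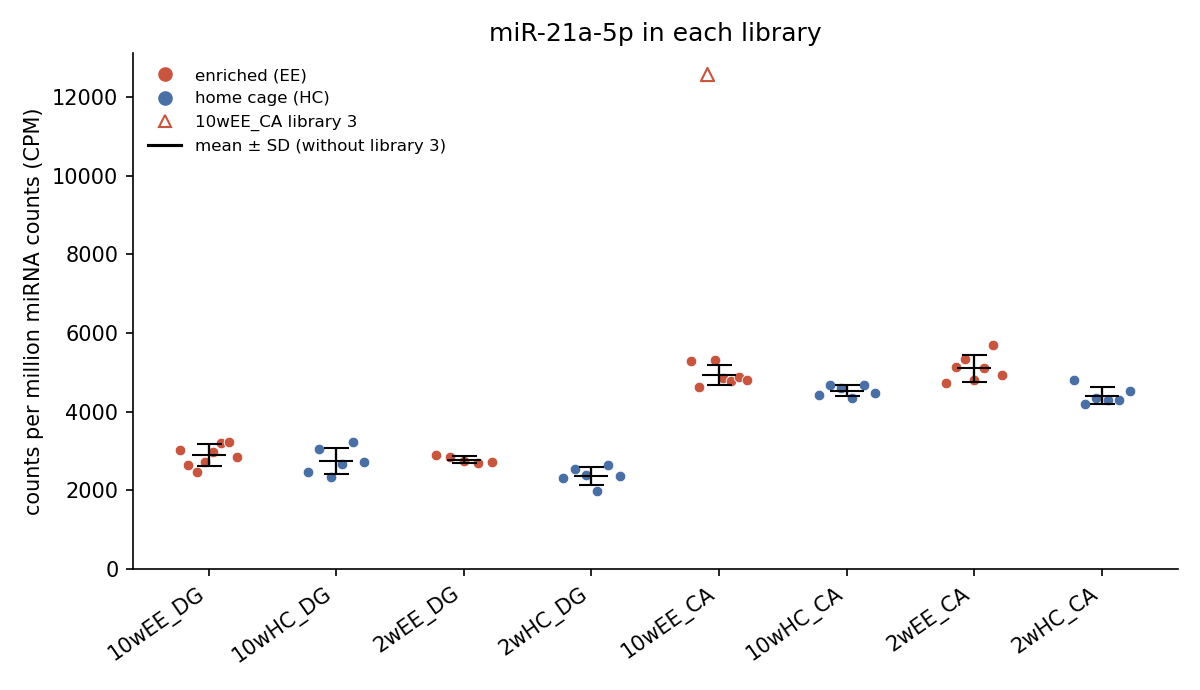
miR-21a-5p in CPM (vertical axis) in each library of the 8 groups (horizontal axis). Bars give the mean ± SD, for 10wEE_CA without library 3 (open triangle, 12590 CPM). All dentate gyrus libraries lie at or below 3235 CPM and all CA libraries at or above 4184 CPM.

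Ordered by mean without library 3, the groups were 2wEE_CA (5098 ± 337 CPM, SD), 10wEE_CA (4936 ± 258), 10wHC_CA (4533 ± 140), 2wHC_CA (4407 ± 225), 10wEE_DG (2892 ± 272), 2wEE_DG (2780 ± 89.3), 10wHC_DG (2737 ± 332) and 2wHC_DG (2365 ± 227). Neighbours in this order overlapped in range everywhere except between 2wHC_CA and 10wEE_DG, the step from one region to the other. With library 3 the mean of 10wEE_CA was 5893 ± 2716 CPM, which placed it first, and 2wEE_CA and 10wHC_CA were then neighbours that did not overlap. Within each region the 2 enriched groups had higher means than the 2 home cage groups. In CA this includes 2wEE_CA and 2wHC_CA, which had led to the choice of miR-21a. In the dentate gyrus 2wEE_DG and 10wHC_DG overlapped in range. miR-21a-5p ranked between 44 and 58 in abundance in dentate gyrus libraries and between 29 and 39 in CA libraries without library 3. Averaged over those 51 libraries it was number 42, at 3755 CPM.

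miR-21a-3p showed the same division between regions at a far lower level. In 10wEE_DG it had 16.8 CPM in the lowest library, a median of 24.5 and 34.6 in the highest. 10wHC_DG had 13.5, 25.1 and 28.1 CPM. 2wEE_DG had 29.1, 22.6, 22.2, 25.1 and 21.5 CPM in its 5 libraries. 2wHC_DG had 17.9, 23.5 and 24.4 CPM. All 4 dentate gyrus groups overlapped one another.

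In CA without library 3, miR-21a-3p in 10wEE_CA had a lowest value of 38.7 CPM, a median of 43.5 and a highest of 52.4. 10wHC_CA had 39.9, 44.0 and 58.5 CPM. 2wEE_CA had 48.8, 57.2 and 62.5 CPM, and 2wHC_CA had 41.1, 50.01 and 55.0 CPM. The highest dentate gyrus library thus lay below the lowest of these 26 CA libraries. Library 3, with 3 counts or 6.24 CPM (interval 1.29 to 18.2), lay below all the others of both regions. The order of the group means differed from that of the guide arm: 2wEE_CA (56.2 ± 4.3 CPM), 2wHC_CA (48.7 ± 5.3), 10wHC_CA (46.4 ± 7.0) and 10wEE_CA (44.6 ± 5.7, or 39.8 ± 14.5 with library 3) were followed by 10wEE_DG (25.02 ± 6.3), 2wEE_DG (24.1 ± 3.1), 10wHC_DG (23.2 ± 5.6) and 2wHC_DG (22.4 ± 2.5). Without library 3 only 10wEE_CA and 10wEE_DG were neighbours that did not overlap, and with it all neighbours overlapped.

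**Figure D2:**
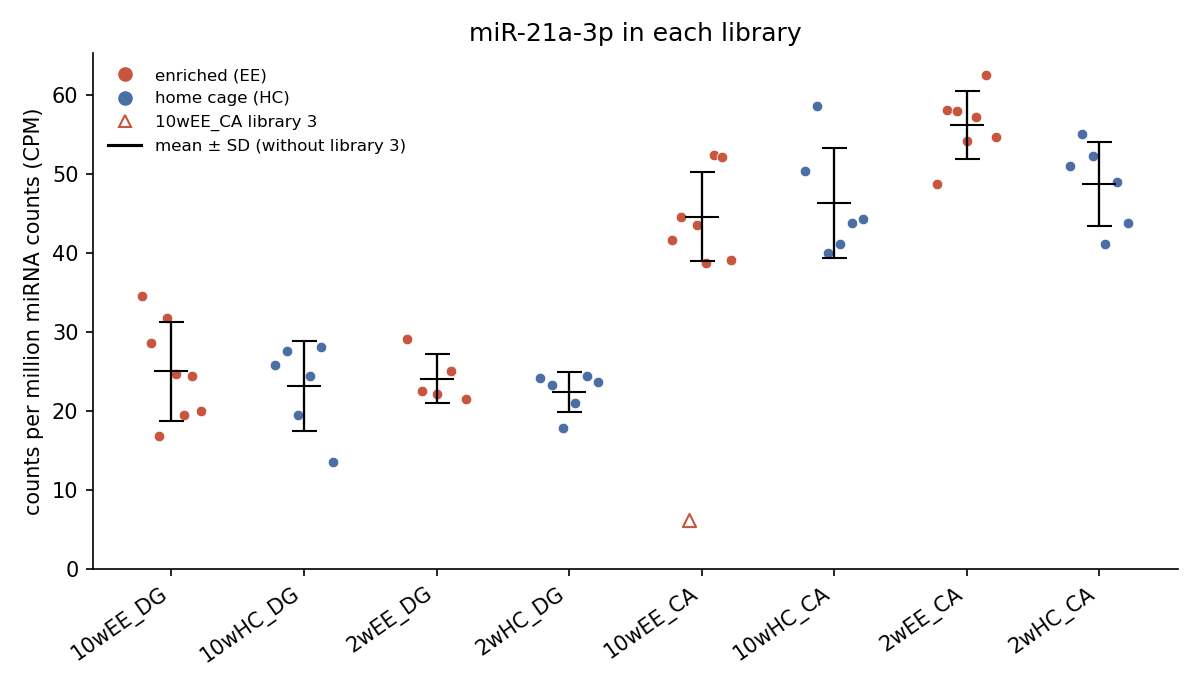
miR-21a-3p in CPM (vertical axis) in each library of the 8 groups (horizontal axis). Bars give the mean ± SD, for 10wEE_CA without library 3 (open triangle, 6.24 CPM). The other CA libraries lie at or above 38.7 CPM and the dentate gyrus libraries at or below 34.6 CPM.

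The arms differ in how well these counts can measure them. The 3p arm had 24 to 95 counts in dentate gyrus libraries and 147 to 351 in CA libraries without library 3. In 2wEE_DG and 2wHC_DG its coefficient of variation between libraries (12.9% and 11.2%) was below that of counting alone (15.4% and 15.8%). For the 5p arm, with 2627 to 9561 counts in the dentate gyrus, counting alone gives 1.19% to 1.52%, and the libraries varied by 3.21% to 12.1%.

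The first question put to a test was whether the regions differ at 10 weeks, where no group had served to choose miR-21a. Both arms were lower in the dentate gyrus. In home cage mice miR-21a-5p averaged 2737 ± 332 CPM in 10wHC_DG and 4533 ± 140 CPM in 10wHC_CA (SD, n = 6 each), a log2 fold change of -0.81 ± 0.12 (SE; edgeR adjusted p = 7.5e-08). miR-21a-3p averaged 23.2 ± 5.6 CPM in 10wHC_DG and 46.4 ± 7.0 CPM in 10wHC_CA, a log2 fold change of -1.08 ± 0.18 (edgeR adjusted p = 1.52e-06). Library 3 is in neither group but was fitted together with them. Without it the values were -0.76 ± 0.06 and -1.03 ± 0.14 (edgeR adjusted p = 1.13e-14 and 5.7e-09). The median log2 fold change over all tested miRNAs moved as well, from -0.06 to -0.01.

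In enriched mice miR-21a-5p averaged 2892 ± 272 CPM in 10wEE_DG (n = 8) and 4936 ± 258 CPM in 10wEE_CA without library 3 (n = 7). The log2 fold change was -0.78 ± 0.06 (edgeR adjusted p = 5.36e-17), or -1.04 ± 0.10 with library 3 (edgeR adjusted p = 1.16e-12). miR-21a-3p had -0.84 ± 0.12 (edgeR adjusted p = 1.815e-08), or -0.82 ± 0.15 with library 3 (edgeR adjusted p = 8.26e-06). Both arms were lower in every dentate gyrus library than in any CA library of the same housing, apart from library 3 for the 3p arm.

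A difference between regions was common among all miRNAs. edgeR called 27.8% of 593 tested miRNAs lower and 21.9% higher in 10wHC_DG than in 10wHC_CA, and 33.2% lower and 25.1% higher in 10wEE_DG than in 10wEE_CA. Without library 3, with 594 tested, the shares were 29.8% and 27.3% in home cage mice and 30.8% and 31.1% in enriched mice. All dentate gyrus libraries lay below all CA libraries for 18.4% of miRNAs in home cage mice, and for 10.5% in enriched mice (16.8% without library 3). In home cage mice miR-21a-5p had the 75th lowest log2 fold change of the 593 and miR-21a-3p the 40th. In every alternative run, each leave-one-out fit included, both arms were called lower, with adjusted p-values of at most 1.19e-05 and 3.56e-05 in home cage mice and 8.6e-05 and 0.00723 in enriched mice for the 5p and 3p arms.

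At 2 weeks the regions are described only. The log2 fold changes were -0.85 ± 0.12 for miR-21a-5p and -1.08 ± 0.18 for miR-21a-3p in 2wHC_DG over 2wHC_CA, and -0.90 ± 0.12 and -1.24 ± 0.19 in 2wEE_DG over 2wEE_CA. In the fit without library 3 they were -0.85 ± 0.06 and -1.08 ± 0.14 in home cage mice, and -0.86 ± 0.07 and -1.20 ± 0.14 in enriched mice. For both arms all dentate gyrus libraries lay below all CA libraries, as they did for 25.3% of all miRNAs in home cage and 23.3% in enriched mice. In dissected tissue, fewer cells of a type and less RNA per cell cannot be told apart.

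The study's main question was what enrichment changed. Neither arm passed in any of the 3 comparisons that could be tested. In the dentate gyrus after 2 weeks, miR-21a-5p averaged 2780 ± 89.3 CPM in 2wEE_DG (n = 5) and 2365 ± 227 CPM in 2wHC_DG (n = 6), a log2 fold change of 0.22 ± 0.09 (edgeR adjusted p = 0.505). All 2wEE_DG libraries lay above all 2wHC_DG libraries, as they did for 3 of the 525 tested miRNAs (0.571%), and edgeR called 0.571% of miRNAs here. Over all alternatives the adjusted p of miR-21a-5p lay between 0.273 and 0.878. miR-21a-3p averaged 24.1 ± 3.1 CPM in 2wEE_DG and 22.4 ± 2.5 CPM in 2wHC_DG, with a log2 fold change of 0.11 ± 0.19 (edgeR adjusted p = 0.999).

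After 10 weeks in the dentate gyrus, miR-21a-5p averaged 2892 ± 272 CPM in 10wEE_DG and 2737 ± 332 CPM in 10wHC_DG. Its log2 fold change was 0.11 ± 0.08 and that of miR-21a-3p 0.14 ± 0.16 (edgeR adjusted p = 0.935 for each), and for either arm 5 of the 8 enriched libraries exceeded the mean of 10wHC_DG. edgeR called 0.381% of miRNAs here. The enrichment effect at 10 weeks minus that at 2 weeks was -0.11 ± 0.12 for miR-21a-5p and 0.03 ± 0.25 for miR-21a-3p (edgeR adjusted p = 0.994 for each). Here edgeR called 0 of 525 miRNAs, with 21 at an unadjusted p under 0.05; limma voom and DESeq2 called 0 as well.

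After 10 weeks in CA, miR-21a-5p averaged 4936 ± 258 CPM in 10wEE_CA without library 3 (n = 7) and 4533 ± 140 CPM in 10wHC_CA (n = 6). The log2 fold change was 0.15 ± 0.05 (edgeR adjusted p = 0.287), with 7 of 7 libraries of 10wEE_CA above the mean of 10wHC_CA and 6 above its highest library. With library 3 it was 0.38 ± 0.15 (edgeR adjusted p = 0.82). Over all alternatives the adjusted p lay between 0.0846 and 0.975. miR-21a-3p averaged 44.6 ± 5.7 CPM in 10wEE_CA without library 3 and 46.4 ± 7.0 CPM in 10wHC_CA, a log2 fold change of -0.04 ± 0.10 (edgeR adjusted p = 0.956), or -0.12 ± 0.16 with library 3 (edgeR adjusted p = 0.887). Without library 3, edgeR called 0.517% of 580 miRNAs. With it, edgeR called 0 of 581, with 30 at an unadjusted p under 0.05; limma voom and DESeq2 called 0 as well, while DESeq2, limma voom and edgeR without TMM, each run without library 3, called 4, 3 and 3.

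The comparison that led to the choice of miR-21a stands for description. miR-21a-5p averaged 5098 ± 337 CPM in 2wEE_CA (n = 7) and 4407 ± 225 CPM in 2wHC_CA (n = 6), a log2 fold change of 0.25 ± 0.05 without library 3 and 0.26 ± 0.15 with it. miR-21a-3p averaged 56.2 ± 4.3 CPM in 2wEE_CA and 48.7 ± 5.3 CPM in 2wHC_CA, with log2 fold changes of 0.25 ± 0.10 and 0.25 ± 0.16. The share of miRNAs called in this comparison was 1.55% without library 3 and 0% with it.

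Whether enrichment acted differently in the 2 regions was tested at 10 weeks. The enrichment effect in DG minus that in CA was -0.02 ± 0.09 for miR-21a-5p and 0.19 ± 0.18 for miR-21a-3p without library 3 (edgeR adjusted p = 1.00 and 0.991), and -0.23 ± 0.15 and 0.25 ± 0.24 with it (edgeR adjusted p = 0.985 for each). Neither arm passed, and edgeR called 0 of 593 miRNAs, with 25 at an unadjusted p under 0.05; limma voom and DESeq2 called 0 as well.

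**Figure D3:**
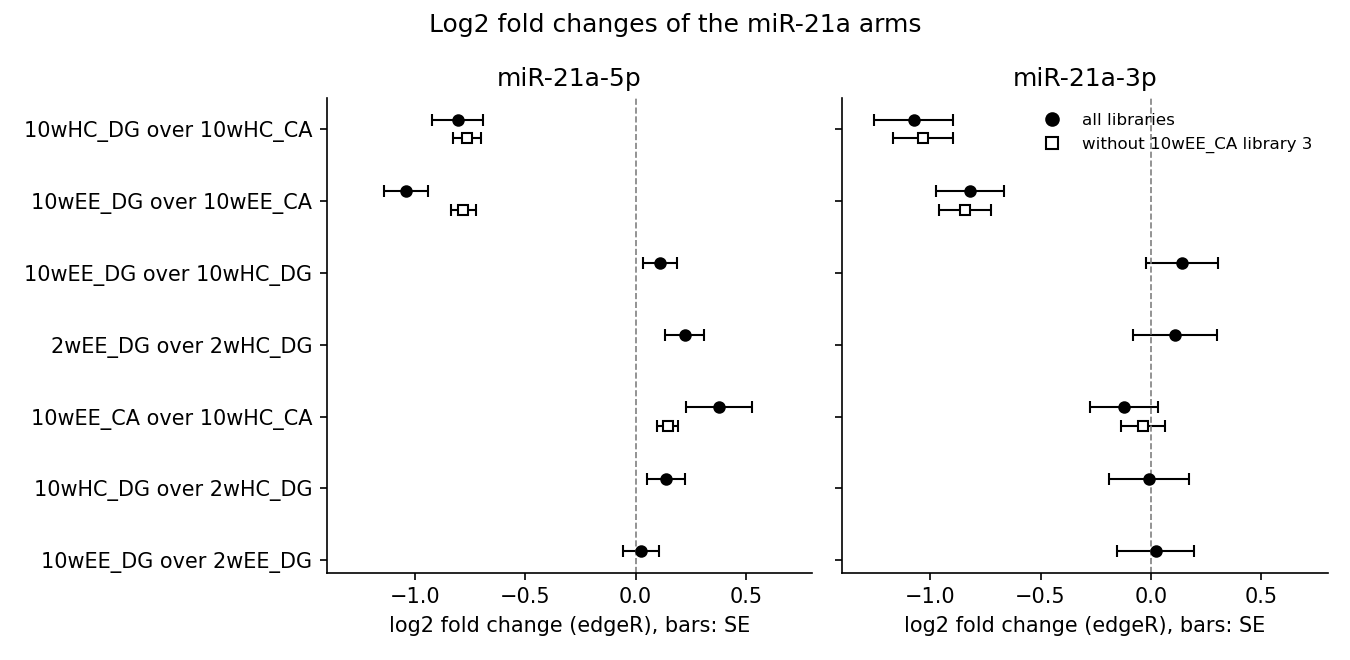
Log2 fold changes of miR-21a-5p (left) and miR-21a-3p (right) from edgeR in the 7 comparisons of 2 groups that were tested, with bars for the SE (horizontal axis). Filled circles use all libraries and open squares leave out library 3 of 10wEE_CA. The comparisons between regions lie between -1.08 and -0.76, and all others between -0.12 and 0.38.

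Housing time was compared in the dentate gyrus. In home cage mice miR-21a-5p averaged 2737 ± 332 CPM in 10wHC_DG and 2365 ± 227 CPM in 2wHC_DG, a log2 fold change of 0.14 ± 0.08 (edgeR adjusted p = 0.28), with 5 of 6 libraries above the 2-week mean. miR-21a-3p averaged 23.2 ± 5.6 CPM in 10wHC_DG and 22.4 ± 2.5 CPM in 2wHC_DG, with a log2 fold change of -0.01 ± 0.18 (edgeR adjusted p = 0.977), whose sign turned with DESeq2, without TMM, with no filter and in 6 of the 12 fits that left out 1 library. This was in a comparison where edgeR called 16% of 525 miRNAs. In enriched mice, 10wEE_DG over 2wEE_DG, the log2 fold changes were 0.03 ± 0.08 and 0.02 ± 0.17 (edgeR adjusted p = 0.885 and 0.944), and edgeR called 9.9% of miRNAs. The 2 comparisons between housing times in CA are described only. miR-21a-5p had 0.06 ± 0.05 in 10wHC_CA over 2wHC_CA and -0.05 ± 0.04 in 10wEE_CA over 2wEE_CA without library 3, and miR-21a-3p had -0.05 ± 0.10 and -0.33 ± 0.09. With library 3, miR-21a-5p had 0.07 ± 0.16 in 10wHC_CA over 2wHC_CA and 0.19 ± 0.14 in 10wEE_CA over 2wEE_CA, so that the sign of the second turned, and miR-21a-3p had -0.04 ± 0.16 and -0.41 ± 0.15. For miR-21a-3p, 5 of 7 libraries of 10wEE_CA without library 3, or 6 of 8 with it, lay below every 2wEE_CA library.

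The ratio of the arms within a library needs no scaling to library size. The 5p arm had 76.0 to 127 counts for each count of the 3p arm in the 26 CA libraries without library 3, and 85.8 to 200.3 in the 25 dentate gyrus libraries. As a share of the counts of both arms, the 3p arm made up 0.497% to 1.15% in dentate gyrus libraries and 0.782% to 1.30% in those 26 CA libraries. The median ratio was 126 in 10wEE_DG, 112 in 10wHC_DG, 124 in 2wEE_DG and 104 in 2wHC_DG. In CA it was 122 in 10wEE_CA without library 3, 103 in 10wHC_CA, 90.2 in 2wEE_CA and 90.9 in 2wHC_CA. Among 176 hairpins whose 2 arms both passed the edgeR filter on low counts, the ratio of miR-21a was the 41st most uneven. The median hairpin of these had 9.60 counts of its main arm for each count of the other. Hairpins with an arm too scarce for the filter were not ranked.

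None of 7 pairs of groups passed for the log2 ratio, in exact two-sided permutation tests with adjustment over the 7. The smallest p was that of 10wHC_DG (6.92 ± 0.37, SD) against 10wHC_CA (6.62 ± 0.20), which differed by 0.30 ± 0.17 (SE; exact permutation p = 0.0887, adjusted p = 0.527, n = 6 each, 924 arrangements). Next was 10wEE_CA without library 3 (6.80 ± 0.21) against 10wHC_CA (6.62 ± 0.20), a difference of 0.17 ± 0.11 (exact permutation p = 0.15, adjusted p = 0.526), or 0.70 ± 0.53 with it (exact permutation p = 0.279, adjusted p = 0.527). Without library 3, the SD of the log2 ratio was largest in the 10-week dentate gyrus groups (0.37 in each), where library 6 of 10wHC_DG had 200.3 (27 counts of the 3p arm) and the other 5 had 95.5 to 120.

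Library 3 of 10wEE_CA had a ratio of 2018, from 6053 counts of miR-21a-5p and 3 of miR-21a-3p (share of the 3p arm 0.0495%, interval 0.0102% to 0.145%). At the median level of the other 7 libraries of its group, its total would give 20.9 counts of the 3p arm. Its miR-21a-5p level was 2.60 times the median of the other 7 libraries of its group. That shift was the 92nd highest of 593 miRNAs, so many others moved as far. With 0.5 added to each count, its arm ratio lay 3.83 above the median of those 7 on the log2 scale, and this shift was the 3rd highest among 97 hairpins with an expected count of at least 10 on the minor arm. The median shift over these hairpins was 0.03, and 49 of the 97 were positive.

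**Figure D4:**
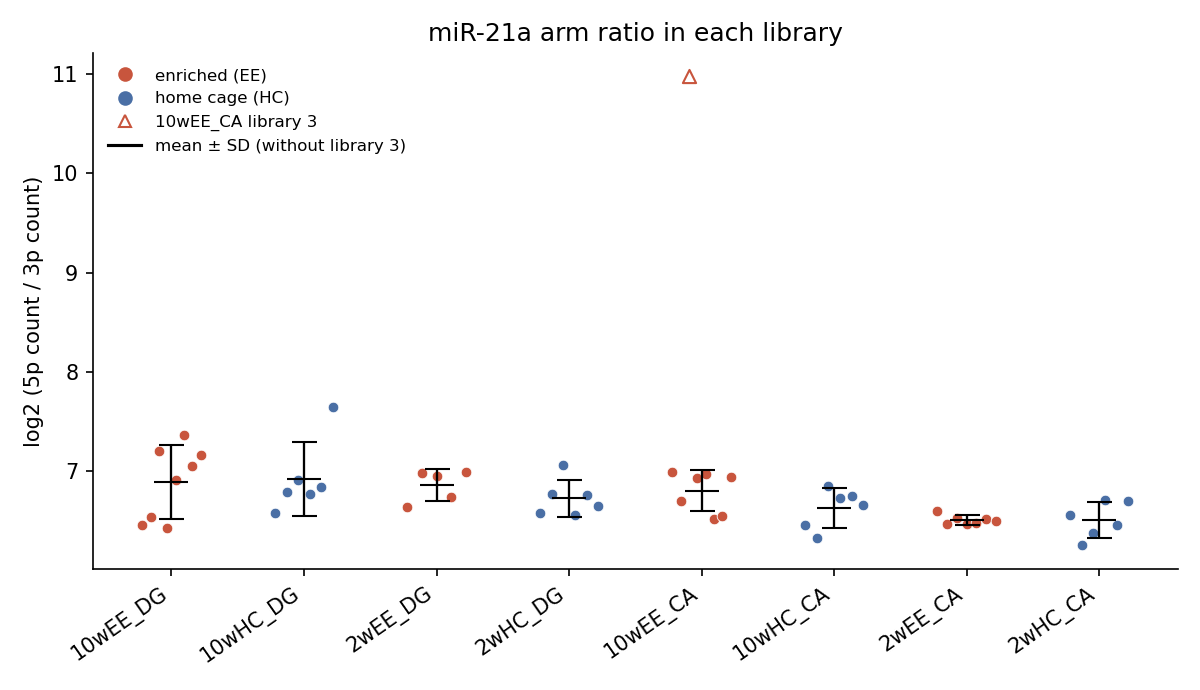
Log2 of the miR-21a-5p count over the miR-21a-3p count (vertical axis) in each library of the 8 groups (horizontal axis), with the mean ± SD, for 10wEE_CA without library 3 (open triangle, 10.98). Library 6 of 10wHC_DG is the next highest, at 7.65.

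miR-21 is one of a set of miRNAs that inflammation induces. The others listed were miR-146a-5p and miR-146b-5p, which dampen NF-kappaB signalling, miR-155-5p and miR-223-3p of leukocytes, miR-147-3p and miR-31-5p. All 6 are among the counted miRNAs, but miR-146b-5p had at most 1 count in a library. miR-146a-5p averaged 248 ± 26.7 CPM in the dentate gyrus and 233 ± 24.1 CPM in CA, and miR-31-5p averaged 333 ± 56.2 CPM in the dentate gyrus and 288 ± 36.6 CPM in CA (SD, n = 25 and 26, without library 3). miR-155-5p averaged 7.0 ± 3.1 CPM in the dentate gyrus and 7.1 ± 1.6 CPM in CA. Against miR-21a-5p, with 2706 ± 314 CPM in the dentate gyrus and 4765 ± 375 CPM in CA, these were low.

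Of the 5 members tested across regions at 10 weeks, 0 were called lower in the dentate gyrus in either housing, where 27.8% and 33.2% of all miRNAs were. In 10wEE_DG over 10wEE_CA, miR-147-3p was higher (0.59 ± 0.24, edgeR adjusted p = 0.036, or 0.64 ± 0.25 and 0.022 without library 3), at 1 to 20 counts a library. There 25.1% of all miRNAs were higher, or 31.1% without library 3. The median log2 fold change of the list was 0.07 in home cage and 0.19 in enriched mice, beside -0.06 and -0.04 over all tested miRNAs. Without library 3 it was 0.11 and 0.20, beside -0.01 and 0.01. In the 3 tested comparisons of enrichment with home cage, 0 of 4 members in the dentate gyrus and 0 of 5 in CA passed. Few miRNAs of any kind did. edgeR called 0.571% of all miRNAs after 2 weeks and 0.381% after 10 weeks in the dentate gyrus. In CA after 10 weeks it called 0%, or 0.517% without library 3. The list's median was -0.11 after 2 weeks and 0.05 after 10 weeks in the dentate gyrus, and 0.01 after 10 weeks in CA (-0.03 without library 3). Over all miRNAs tested it was -0.01, 0.00 and 0.00.

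The miRNAs whose levels were most like those of miR-21a-5p were found among 235 with a mean of at least 100 CPM, by Pearson's r of log2 TMM-normalized CPM over the 51 libraries without library 3. These r are descriptive: libraries share depth, scaling and above all region, which separates the points into 2 clusters. The highest were miR-93-5p of the miR-106b/25 cluster (r = 0.964), miR-34c-5p of multiciliated cells (0.948), miR-338-3p and miR-219a-2-3p of oligodendrocytes (0.947 each) and miR-3065-3p (0.947). The other arm, miR-21a-3p, reached 0.905. The lowest were miR-187-3p (-0.959), miR-181d-5p (-0.948) and miR-181c-5p (-0.944). In all, 19 miRNAs were over 0.9.

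Each of these 5 most similar miRNAs was lower in every dentate gyrus library than in any of the 26 CA libraries. The regions came nearest for miR-34c-5p, with a highest value of 2124 CPM in the dentate gyrus and a lowest of 2266 CPM in CA. miR-93-5p averaged 666 ± 52.6 CPM in the dentate gyrus and 980 ± 59.0 CPM in CA. miR-338-3p averaged 2064 ± 249 CPM in the dentate gyrus and 6144 ± 623 CPM in CA, a wider gap than that of miR-21a-5p. miR-187-3p went the other way, with 1192 ± 192 CPM in the dentate gyrus and 197 ± 37.4 CPM in CA.

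Within a region the r of these 5 was lower. miR-93-5p kept r = 0.821 over the 26 CA libraries, the highest of the 235, and had 0.487 over the 25 dentate gyrus libraries. miR-338-3p had 0.162 in the dentate gyrus and 0.410 in CA, and miR-219a-2-3p 0.212 and 0.660. With group means removed, the 5 had r between 0.227 and 0.406, and miR-21a-3p 0.275. Other miRNAs came first in these settings. miR-152-3p was highest over the dentate gyrus libraries (0.627), and miR-378a-3p with group means removed (0.581). Over the 51 libraries they had r = 0.127 and -0.737. With library 3 included, r of miR-93-5p over 52 libraries was 0.516 and that of miR-21a-3p 0.475.

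**Figure D5:**
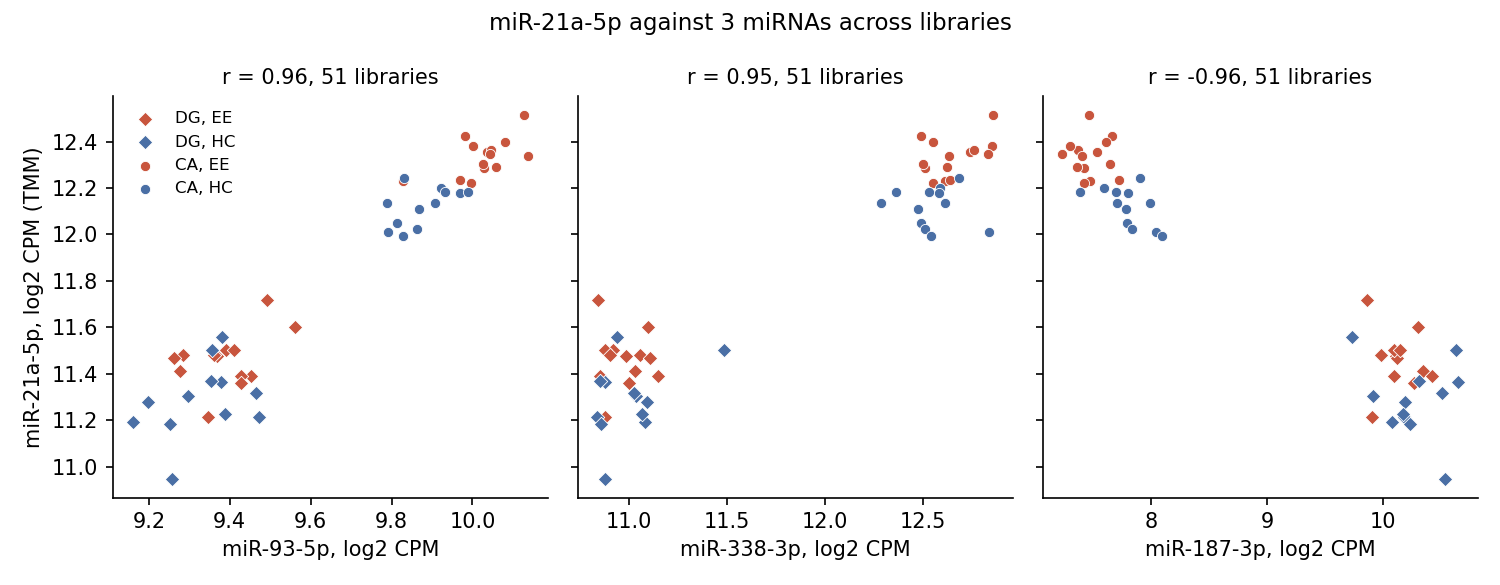
Log2 TMM-normalized CPM of miR-21a-5p (vertical axis) against that of miR-93-5p, miR-338-3p and miR-187-3p (horizontal axes) in 51 libraries, without library 3 of 10wEE_CA. Diamonds are dentate gyrus and circles CA libraries, red enriched and blue home cage. The regions form separate clusters in each panel, and r is 0.964, 0.947 and -0.959.

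The description of miR-21a as glial was set beside miRNAs that mark cell types. The tissue holds all of them, and no value here assigns miR-21a to one. The 6 oligodendrocyte markers summed to 2017 to 3890 CPM in dentate gyrus libraries and 6102 to 9064 CPM in the 26 CA libraries without library 3, with no overlap. Of the 4 tested across regions, 3 were lower in 10wHC_DG than in 10wHC_CA and 4 in 10wEE_DG than in 10wEE_CA, with and without library 3, where 27.8% and 33.2% of all miRNAs were lower. They had median log2 fold changes of -1.62 and -1.85 (over all tested miRNAs -0.06 and -0.04), or -1.58 and -1.75 without library 3. miR-338-3p had -1.44 ± 0.10 in home cage and -1.70 ± 0.09 in enriched mice (edgeR adjusted p = 4.35e-17 and 3.18e-22), or -1.39 ± 0.08 and -1.52 ± 0.07 without library 3. miR-219a-5p, a defining marker, had at most 1 count in a library, and miR-219b-3p at most 5. Multiply aligned reads entered no miRNA count, and whether this lowered the counts of either was not tested. In library 3 the sum was 12536 CPM. The part of oligodendrocyte content in the regional difference of miR-21a was not tested.

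The 8 astroglial markers, of the miR-23/27 clusters, the miR-29 family and miR-193a, summed to 53702 to 73133 CPM in dentate gyrus libraries and 68407 to 80705 CPM in CA libraries without library 3, which overlap, and to 94263 CPM in library 3. Of the 8, 4 were lower in 10wHC_DG than in 10wHC_CA and 3 in 10wEE_DG than in 10wEE_CA, with and without library 3, where 27.8% and 33.2% of all miRNAs were lower, a share near that of the list in enriched mice. The median of the list was -0.34 and -0.16 (over all tested miRNAs -0.06 and -0.04), or -0.30 and -0.08 without library 3. The lower ones common to both were miR-23a-3p, miR-23b-3p and miR-27b-3p, the last with -0.44 ± 0.06 and -0.44 ± 0.05 (edgeR adjusted p = 4.8e-09 and 8.61e-11), or -0.40 ± 0.05 and -0.38 ± 0.05 without library 3. Without library 3, 2 others, miR-29a-3p and miR-29c-3p, were higher in both comparisons, with 0.17 ± 0.06 and 0.21 ± 0.06 in home cage mice. Within regions, the summed level had r = 0.619 with miR-21a-5p over the 25 dentate gyrus libraries and 0.508 over the 26 CA libraries, on log2 CPM. Most of that sum was miR-27b-3p and miR-29a-3p. They averaged 33001 and 25415 CPM in the dentate gyrus, and 44372 and 23623 CPM in CA without library 3. The r of the sum thus mostly reflects these 2 and not all 8 markers.

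The microglial and leukocyte markers, 5 of whose 7 listed names match a counted miRNA, summed to 2072 to 3586 CPM in dentate gyrus libraries and 2282 to 2997 CPM in CA libraries without library 3, which had 2182 CPM. Most of that sum was miR-150-5p, with 2392 ± 369 CPM in the dentate gyrus and 2412 ± 197 CPM in CA, and it was lower in 10wHC_DG than in 10wHC_CA (-0.26 ± 0.11, edgeR adjusted p = 0.0499; -0.22 ± 0.09 and 0.0434 without library 3). No other of the 4 tested members passed in either housing. miR-223-5p had at most 6 counts. The summed level of these 5, without miR-142, had r = -0.342 with miR-21a-5p in the dentate gyrus and -0.510 in CA. Both arms of miR-142 were counted, under that name without the a, but did not enter the sum. miR-142-5p averaged 648 CPM over the 51 libraries without library 3. On log2 TMM-normalized CPM its r with miR-21a-5p was 0.596 in the dentate gyrus and 0.152 in CA. For the sum of the oligodendrocyte markers r was 0.338 and 0.343, and for that of the 10 neuronal markers -0.432 and -0.532. The vascular markers had 0.273 and -0.040, the erythrocyte markers (3 of 5 names matched) 0.607 and 0.054, and the choroid plexus and ependymal markers -0.510 and 0.472. A miRNA named miR-486-5p was counted but is not part of that erythrocyte sum. The vascular markers summed to 13143 to 63632 CPM in dentate gyrus libraries and 18040 to 33817 CPM in CA libraries without library 3, which had 32498 CPM. The neuronal markers summed to 24506 to 37865 CPM in dentate gyrus libraries and 21293 to 29734 CPM in those CA libraries, with 36648 CPM in library 3. The choroid plexus and ependymal markers summed to 13557 to 21534 CPM in dentate gyrus libraries and 7618 to 19130 CPM in those CA libraries, with 13540 CPM in library 3. The erythrocyte markers summed to 154 to 507 CPM in dentate gyrus libraries and 254 to 512 CPM in those CA libraries, with 1113 CPM in library 3. All 4 of these sums overlapped between the regions.

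In 10wHC_DG against 10wHC_CA, where 21.9% of all miRNAs were higher and 27.8% lower, 0 of 5 tested vascular and 0 of 3 erythrocyte markers passed, with and without library 3. Of 6 choroid plexus and ependymal markers 2 were higher and 3 lower in either fit, and of 9 neuronal markers 2 were higher and 1 lower, or 4 and 1 without library 3. In 10wEE_DG against 10wEE_CA, with 25.1% of all miRNAs higher and 33.2% lower, 1 vascular marker was higher, 2 choroid plexus and ependymal markers were higher and 3 lower, in either fit. There 2 neuronal markers were higher and 2 lower, or 3 and 1 without library 3, and 1 erythrocyte marker was lower, or 0 without library 3. In home cage mice the median log2 fold changes were 0.00 (vascular), -0.09 (erythrocyte), -1.25 (choroid plexus and ependymal) and 0.13 (neuronal), beside -0.06 over all miRNAs. In enriched mice they were 0.42, -0.20, -0.95 and 0.11, beside -0.04. Without library 3 they were 0.05, -0.04, -1.21 and 0.17 in home cage mice, and 0.45, 0.11, -0.85 and 0.30 in enriched mice. All r values share the libraries' totals, so that a rise in one miRNA lowers the CPM of the rest.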

How the data were processed

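Per the labels' protocols, RNA of the dissected subregions was isolated with Tri reagent, treated with DNase and made into Illumina TruSeq libraries. The authors deposited raw read counts per mature miRNA. The submitters' processing notes name the mm10 build and the tools STAR, HTSeq, cutadapt and CASAVA (1.8.2). Which miRNA annotation was counted is not stated in the labels. Each deposited table closes with 5 rows for reads outside the miRNA counts (multiply aligned reads 59.3% to 71.0% of reads, reads outside any miRNA 3.37% to 6.34%, ambiguous reads 0.185% to 0.527%), which were dropped. Multiply aligned reads entered no miRNA count.

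From these counts, edgeR 4.0.16 in R 4.3.3 (TMM scaling, filterByExpr by group, a quasi-likelihood F test with 1 mean per group and no covariate) was fitted on 25 dentate gyrus, 27 CA or all 52 libraries. P-values are two-sided with Benjamini-Hochberg adjustment over all tested miRNAs, at a threshold of 0.05, and the SE is the fold change over the square root of F. Levels are plain CPM, and log2 CPM used a prior count of 2. The code was tested on simulated data. The alternatives were DESeq2 1.42.0, limma voom (limma 3.58.1), no TMM, no filter or a mean of at least 10 CPM, fits of the 2 groups alone, a replicate block, and leaving out each library. The miRNAs named are the 2 arms, their relatives, the inflammation-induced list, and the 5 most and 3 least similar to miR-21a-5p over the 51 libraries. miR-152-3p and miR-378a-3p are named as most similar within the dentate gyrus and with group means removed. Cell type markers, with miR-142 and miR-486, are named as examples. Members and lists were chosen with earlier results of these data known. Titles gave the groups.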

Additional observations from a re-analysis of the deposited data

Results flagged for a closer look

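In each of the 8 groups, the highest and lowest library were compared with the rest for 3 measures, the CPM of each arm and the log2 arm ratio, by Dixon's criterion, which chance alone meets in about 1 of 20 groups. Of 24 checks, 4 met it, and 3 of these were library 3 of 10wEE_CA. It had 12590 CPM of miR-21a-5p, far above the others of its group, 6.24 CPM of miR-21a-3p, far below them, and a log2 ratio of 10.98, far above them. This is the library with 480792 counts in all. The remaining one was library 6 of 10wHC_DG, whose log2 ratio of 7.65 lay far above the other 5 and rests on 27 counts of miR-21a-3p. Its miR-21a-5p, at 2705 CPM, lay within the range of its group.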

How the results depend on the processing

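The lower level of both arms in the dentate gyrus at 10 weeks held under every alternative run. Of the other results, those near 0 changed sign without passing a test, and the cause was not tested. For miR-21a-3p in 10wHC_DG over 2wHC_DG the log2 fold change was 0.00472 with DESeq2, 0.0581 without TMM and 0.00404 with no filter, and for 10wEE_DG over 2wEE_DG it was -0.0182 with voom. For the enrichment effect at 10 weeks minus at 2 weeks it was -0.0097 without TMM. For miR-21a-5p, 2wEE_DG over 2wEE_CA moved to -0.81 with DESeq2. Leaving out 1 library at a time gave -0.0845 to 0.124 for miR-21a-3p in 10wHC_DG over 2wHC_DG, -0.0660 to 0.10 in 10wEE_DG over 2wEE_DG and -0.11 to 0.12 for the difference between these times' enrichment effects. For miR-21a-5p it gave -0.0038 to 0.0634 in 10wEE_DG over 2wEE_DG and -0.92 to -0.83 in 2wEE_DG over 2wEE_CA. The log2 arm ratio gave -0.55 to 0.0883 (the last without library 3) for 10wEE_DG over 10wEE_CA, -0.10 to 0.11 for 10wEE_DG over 10wHC_DG and -0.0408 to 0.0936 for 10wEE_DG over 2wEE_DG. Counts of called miRNAs over 1.5 times apart from those reported were 1 against 3 in 2wEE_DG over 2wHC_DG in the fit of the 2 groups alone, 51 with no filter and 55 in the fit of the 2 groups alone against 84 in 10wHC_DG over 2wHC_DG, and 0 or 1 against 2 in 10wEE_DG over 10wHC_DG. Leaving out 1 library gave 48 to 91 calls in 10wHC_DG over 2wHC_DG (fewest without library 4 of 2wHC_DG), 14 to 74 against 52 in 10wEE_DG over 2wEE_DG (fewest without library 5 of 2wEE_DG) and 0 to 2 in 10wEE_DG over 10wHC_DG. Replicate numbers are shared by the groups, but same-numbered libraries did not deviate together in every pair of any 2 groups (correlations of their deviations between -0.289 and 0.333 over 16 pairs of groups), so the block is a check only. The median correlation of 2 groups lay between -0.101 and 0.169. In 2wHC_CA with 2wHC_DG 5 of 6 same-numbered pairs exceeded 0.1, and in 10wHC_DG with 10wEE_DG 4 of 6. Whether a number stands for a shared animal or batch was not tested. With the replicate block, miR-21a-5p had -0.0446 in 10wEE_DG over 2wEE_DG and, with library 3 left out, 0.00864 for the enrichment effect in DG minus in CA, and no call of either arm changed. Depth limits the 3p arm most, with 24 to 95 counts in a dentate gyrus library.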
